A study of Arabidopsis thaliana with 8 samples.

Results

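The 9 genes described here act in the endosperm, the tissue that surrounds and feeds the embryo inside the seed, or are imprinted there, which means that they are read mainly from the copy of a single parent. They are a list of 9 identifiers among 33602 gene models counted in each library, with no threshold on their values, and the list was drawn up with earlier results of these data known. The list holds the late endosperm regulator MYB118 and its relative MYB115, and 7 genes known from earlier endosperm or for imprinting: AGL62, PHE1, FIS2, MEA, IKU2, MINI3 and FWA. Both tissues compared, epidermis and mesophyll, came from embryos of the wild-type accession Col-0 without any treatment. Laser microdissection of seed sections gave 4 RNA libraries of cotyledon epidermis and 4 of cotyledon mesophyll. The stage is given as torpedo in the study's results and as linear in its methods. Material from several siliques of a single plant was joined into each replicate, and the labels do not tie a replicate number to a plant or to a harvest date. In such bulk samples fewer cells of a type and less RNA per cell cannot be told apart.

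After fertilization the Arabidopsis endosperm first divides as a syncytium of free nuclei, then forms cell walls, and is largely consumed as the embryo grows. AGL62, a type I MADS box factor, holds back cell wall formation, and the FIS form of Polycomb repressive complex 2, which contains MEA and FIS2, is needed to end the syncytial phase and represses the MADS box gene PHE1. The receptor kinase IKU2 and the WRKY factor MINI3 promote early endosperm growth and thereby seed size. FWA, a homeodomain gene, is read from the maternal copy in endosperm after DNA demethylation. MYB118 and MYB115 are R2R3 MYB factors, and MYB118 is a regulator of the later, maturing endosperm.

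Of the 9 genes, 4 had more than 100 read pairs over all libraries, 3 had 1 to 4 pairs in all, and 2 had none. The late gene MYB118 was counted in all 8 libraries, with 3031 pairs in all. Among the 7 early or imprinted genes, AGL62 had 612 pairs, FWA 283 and FIS2 166, whereas MEA, IKU2 and MINI3 had 3, 4 and 1. MYB115 and PHE1 had no pair in any library. Late endosperm was thus represented by 1 of its 2 genes, and early or imprinted genes by 3 of 7 at more than 100 pairs.

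**Figure D1:**
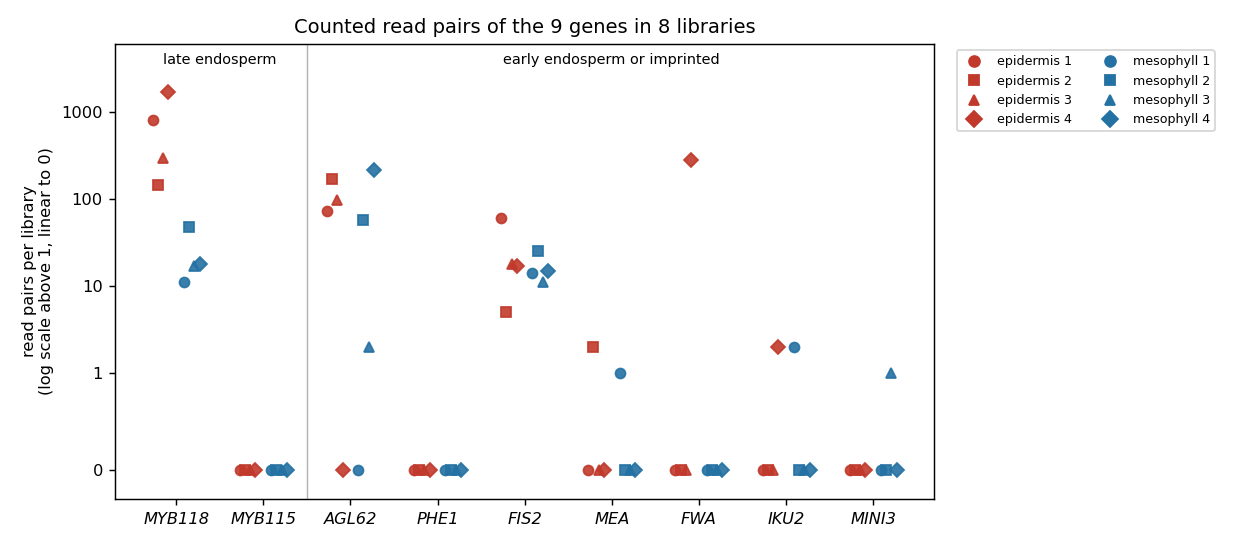
Counted read pairs (y axis, log scale above 1 and linear down to 0) of the 9 genes (x axis) in each of the 8 libraries, with epidermis in red, mesophyll in blue and the marker shape giving the replicate number. The 4 epidermis libraries lie at 146 to 1698 pairs of MYB118 and the 4 mesophyll libraries at 11 to 47, AGL62 is at 0 in 1 library of each tissue, and FWA has pairs in epidermis replicate 4 alone.

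Libraries held 27676412 to 36685627 counted pairs, and between 17796 and 19103 gene models had at least 1 pair. Levels are given as CPM, counts scaled to library size with the TMM factors of edgeR. An absent gene could have had up to 3 pairs, which is 0.0878 to 0.107 CPM depending on the library, and 0 pairs in all 246800207 pairs allowed a level of up to 0.0122 CPM. These limits cover counting error only, since the libraries carried no molecular identifiers. They do not cover loss of transcripts before sequencing, and the study made its cDNA from picogram amounts of microdissected RNA. Of 2377 models at a mean of 1 to 4 CPM over the 8 libraries, 63.7% had no pair in at least 1 library. The tissue labels were checked on markers: all 9 epidermis markers were called higher in epidermis, with a summed level of 3344 to 6446 CPM against 252 to 749 CPM, and 3 of 8 mesophyll markers were called lower there. In the same fit, edgeR's quasi-likelihood test with replicate number as a block, 171 of 15794 tested genes (1.08%) were called at an adjusted p of 0.05 or less, 155 (0.981%) higher in epidermis and 16 lower, and the median log2 fold change of all genes was -0.04. The summed level of 10 endosperm markers other than the 9 genes was 260.3 to 404 CPM in epidermis and 44.6 to 90.8 CPM in mesophyll, and without SUC5, which made up much of it, 108 to 289 and 25.5 to 43.8 CPM. Of the 10 markers 8 were tested and 1, SUC5, was called, and IPT4 and IPT8 were at 0 in every library. All fold changes below are log2 of epidermis over mesophyll.

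MYB118 (AT3G27785) is annotated in TAIR10.1 on the minus strand of chromosome 3, from 10288603 to 10290934, with 4 exons and no overlapping gene. It had 799, 146, 295 and 1698 pairs in epidermis replicates 1 to 4 and 11, 47, 17 and 18 pairs in mesophyll. As scaled levels these were 23.4, 5.20, 9.575 and 57.05 CPM against 0.391, 1.375, 0.564 and 0.579 CPM. Replicate 4 was the highest epidermis library and replicate 2 the lowest, and the lowest epidermis library was above the highest mesophyll library. Of the 22886 models with a pair in any library, 4.46% had all epidermis libraries above all mesophyll libraries, as had 5.5% of the models past the filter described next, and of the 9 genes MYB118 was the only such gene. The mean was 23.8 ± 23.5 CPM in epidermis and 0.727 ± 0.440 CPM in mesophyll (SD, n = 4), a ratio of means of 32.8. Within epidermis the highest library was 10.97 times the lowest, within mesophyll 3.52 times.

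The difference in MYB118 had a log2 fold change of 4.68 (SE 1.01), and it did not pass the test across all genes (edgeR quasi-likelihood, unadjusted p = 0.00158, adjusted p = 0.0823). MYB118 passed the filter on low values, a minimum of 1 CPM in 4 or more of the 8 libraries, through its 4 epidermis libraries and 1 mesophyll library. With no block for replicate number the log2 fold change was 5.02 (SE 0.88) and the gene was called (edgeR quasi-likelihood, adjusted p = 0.0133), where 2.29% of tested genes were called, 1.75% higher in epidermis. The study itself used the likelihood ratio test of edgeR and listed MYB118 as differentially expressed. Here that likelihood ratio test, with 5.2% called and 3.53% higher, gave an adjusted p of 1.59e-04. DESeq2, with 8.36% called and 4.98% higher, gave an adjusted p of 6.11e-08. The bias-adjusted quasi-likelihood fit of edgeR, added after the data were seen, called 4.01% of genes, 2.99% higher, with MYB118 at an adjusted p of 0.00358. With neither filter nor block, also added later, 1.61% were called, 1.26% higher, and MYB118 had an edgeR adjusted p of 0.0103. In the fit without the block that left out epidermis replicate 4, the library with the most MYB118, the log2 fold change was 4.12 (SE 0.87, edgeR adjusted p = 0.0430). With the block, the call was made without replicate 2 (log2 fold change 5.55, edgeR adjusted p = 0.0345, with 0.931% of genes called and 0.848% higher) and not without replicates 1, 3 or 4 (0.262, 0.242 and 0.254). The summed level of the endosperm markers also lay higher in every epidermis library than in any mesophyll library (260.3 to 404 against 44.6 to 90.8 CPM). Even so, 1 of 8 tested was called, and the part of this level in the difference of MYB118 was not tested. The study's discussion, citing MYB118 as restricted to endosperm, proposes a probable contamination of the epidermis samples with endosperm. It describes the data as enriched for epidermis, not strictly specific to it. That reading was not tested here either.

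Per kilobase of its model, MYB118 was at 14.0 ± 13.8 CPM per kb in epidermis and 0.428 ± 0.259 in mesophyll (SD, n = 4). In epidermis 34.9% of models with a pair stood above it on that scale, and the median model was at 7.11 CPM per kb. In mesophyll 80.2% stood above it. Library by library, 40.1%, 71.6%, 60.2% and 22.1% of models with a pair stood above MYB118 in epidermis replicates 1 to 4, so that it was above the median model in replicates 1 and 4 and below it in replicates 2 and 3. In the mesophyll libraries 82.6% to 89.6% stood above it.

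MYB118 was set beside other genes known from the endosperm of the growing seed. SUC5, an endosperm sucrose transporter, stood at 172, 201, 92.3 and 114 CPM in the epidermis libraries and at 54.4, 46.95, 16.5 and 60.6 CPM in those of mesophyll, and it was called (log2 fold change 1.79, edgeR quasi-likelihood, adjusted p = 0.0268). The bHLH factor ZOU (RGE1 in the annotation), which is needed for breakdown of the endosperm, had 12.2, 1.11, 12.5 and 22.3 CPM in epidermis and at most 1.16 CPM in mesophyll, with overlapping tissues. ALE1, a subtilase gene of the endosperm needed for the embryo's cuticle, ranged from 18.0 to 66.05 CPM in epidermis and from 0.0332 to 3.02 CPM in mesophyll, and EPR1, an extensin-like gene, from 14.05 to 37.5 CPM against 0 to 2.98 CPM. Neither was called in the edgeR quasi-likelihood test (adjusted p of 0.110 for ALE1 and 0.08885 for EPR1, and 0.126 for ZOU). Of the 10 markers 5 had all epidermis libraries above all mesophyll libraries, against 4.46% of all models with a pair, and of 8 tested 1 was called higher and none lower, against 1.08% of all genes called. The median log2 fold change of the 8 was 3.58. ZOU, ALE1 and EPR1 among them reached 1 CPM in fewer than 4 mesophyll libraries and passed the filter through epidermis. Such a filter pushes the median up, so it is a description only. The list includes the desaturases AT3G02610, which is among the 5, and AT5G16230 (log2 fold change -1.19), which are described next. ENDOSPERM DEFECTIVE 1, a microtubule-associated gene of the same list, had a log2 fold change of 0.11.

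MYB118 did not keep a fixed proportion to SUC5 from library to library. There were 13.7, 2.59, 10.4 and 50 pairs of MYB118 for each 100 pairs of SUC5 in epidermis replicates 1 to 4. In mesophyll there were 0.718, 2.93, 3.41 and 0.955. Epidermis replicate 2, which had the most SUC5, had the least MYB118 of its tissue, and its proportion lay within the range of the mesophyll libraries.

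**Figure D2:**
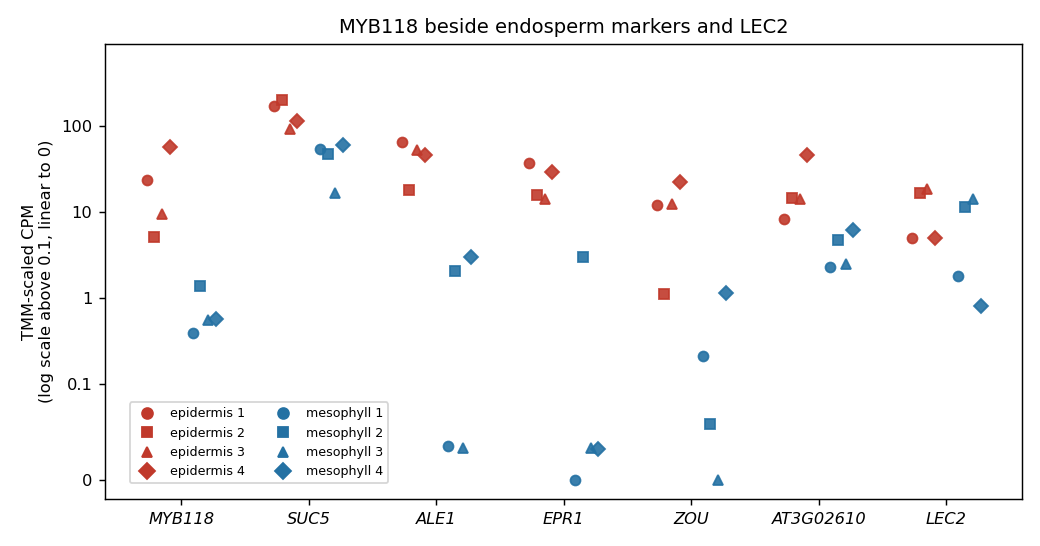
Levels in TMM-scaled CPM (y axis, log scale above 0.1 and linear down to 0) of MYB118, the endosperm genes SUC5, ALE1, EPR1 and ZOU, the desaturase AT3G02610 and LEC2 (x axis) in each library, coloured by tissue and shaped by replicate number. MYB118, SUC5, ALE1, EPR1 and AT3G02610 have all epidermis libraries above all mesophyll libraries, whereas ZOU and LEC2 overlap.

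LEC2, a B3 factor of embryo maturation known to act upstream of MYB118, and 2 stearoyl-acyl-carrier-protein desaturase genes were the related genes listed with the MYBs. LEC2 had 4.96, 16.7, 18.4 and 4.94 CPM in epidermis and 1.81, 11.4, 14.1 and 0.804 CPM in mesophyll, so that the tissues overlapped (log2 fold change 1.23, edgeR quasi-likelihood, adjusted p = 0.613). The desaturase AT3G02610 was at 8.39, 14.4, 14.05 and 46.2 CPM in epidermis and at 2.27, 4.71, 2.49 and 6.24 CPM in mesophyll. Its tissues did not overlap and its highest library was epidermis replicate 4, as for MYB118, though the gene missed the threshold (2.22, edgeR quasi-likelihood, adjusted p = 0.141). The other desaturase, AT5G16230, differed by -1.19 on the log2 scale (edgeR quasi-likelihood, adjusted p = 0.881). None of the 3 tested genes was called.

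MYB115 (AT5G40360, chromosome 5 from 16144792 to 16146671, plus strand) is the closest relative of MYB118 by transcript sequence and had no pair and no singly counted read in any library. Pairs that match several models equally well were removed before counting, so the likeness of the transcripts bears on that 0. RefSeq transcripts were compared, and that of MYB115 has 1600 bases against 1201 in the counted model. The transcripts aligned over 342 bases with 74.6% identity, and the longest run they shared was 17 bases. A stretch of 120 coding bases around that run is printed for both, because it shows how far the genes can be told apart where they are most alike. Capitals mark the 28 bases at which they differ. The MYB118 stretch lies in chr3:10289325-10289862 (minus strand) and the MYB115 stretch in chr5:16145943-16146162 (plus strand), each spliced across an intron, in TAIR10.1.
MYB118: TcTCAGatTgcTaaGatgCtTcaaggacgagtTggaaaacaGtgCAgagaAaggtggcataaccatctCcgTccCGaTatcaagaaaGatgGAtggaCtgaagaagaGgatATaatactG
MYB115: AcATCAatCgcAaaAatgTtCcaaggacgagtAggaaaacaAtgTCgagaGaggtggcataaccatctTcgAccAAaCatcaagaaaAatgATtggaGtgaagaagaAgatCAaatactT
Differences stand all along the stretch. In these libraries the pair of MYB genes was therefore represented by MYB118 alone, with MYB115 below 3 pairs in every library.

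AGL62 (AT5G60440, chromosome 5 from 24305381 to 24307716, plus strand) was the most counted of the early genes and did not separate the tissues. It had 73, 168, 97 and 0 pairs in epidermis replicates 1 to 4 and 0, 57, 2 and 215 pairs in mesophyll. Scaled levels were 2.14, 5.99, 3.15 and 0 CPM against 0, 1.67, 0.0663 and 6.91 CPM. Its highest library was mesophyll replicate 4, and each tissue had 1 library without a pair. The mean was 2.82 ± 2.49 CPM in epidermis and 2.16 ± 3.26 CPM in mesophyll (SD, n = 4), a difference smaller than either SD. The log2 fold change was 3.15 (SE 3.11, edgeR quasi-likelihood, adjusted p = 0.796) with the block and 0.38 (SE 1.77, adjusted p = 0.971) without it. Without the block it ranged from -0.29, without epidermis replicate 2, to 2.27, without mesophyll replicate 4. AGL62 was not called under any setting that was run.

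The library with the most MYB118, epidermis replicate 4, had no AGL62. The other early MADS box gene with more than 10 pairs was AGL80, a factor of the female gametophyte's central cell, which had 5.69, 3.78, 7.47 and 0 CPM in epidermis and 1.81, 3.69, 0.531 and 4.73 CPM in mesophyll. It too was at 0 in epidermis replicate 4 (log2 fold change 0.55, edgeR quasi-likelihood, adjusted p = 0.961). Of 14 other type I MADS box genes 11 had no pair in any library, 13 had fewer than 10 pairs in all, and AGL80 was the only gene tested. Of all 33602 models 68.1% had a pair in at least 1 library. The 11 include PHE2, a near copy of PHE1, and pairs matching both equally well were removed. They also include AGL36, which is in the list of imprinted genes too.

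Counts that switched between 0 and many pairs within a tissue, as in AGL62, were common at its level. Of 2377 models at a mean of 1 to 4 CPM over the 8 libraries, 22.4% had no pair in at least 1 library of each tissue, and 12.7% had in both tissues a library with no pair and a library with 50 or more. AGL62, at a mean of 2.49 CPM, had both features.

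**Figure D3:**
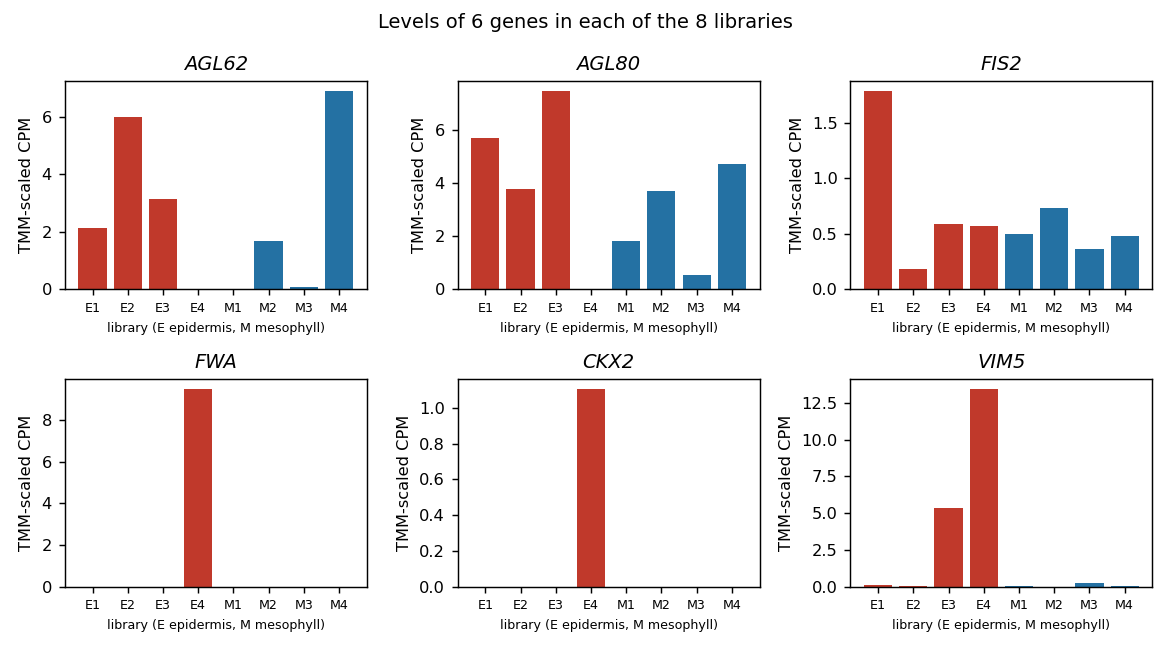
Levels in TMM-scaled CPM (y axis, from 0, with its own scale per panel) in each library (x axis, E epidermis in red and M mesophyll in blue, with the replicate number) for 3 of the 9 genes, AGL62, FIS2 and FWA, and for AGL80, CKX2 and VIM5. AGL62 and AGL80 are at 0 in epidermis replicate 4, where FWA and CKX2 have their only pairs and VIM5 its highest level.

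PHE1 (AT1G65330, chromosome 1 from 24266257 to 24267336, minus strand) had no pair in any library. It has a near copy, PHE2 (AGL38 in the annotation), with which its transcript aligned over 945 bases at 85.6% identity. The alignment used RefSeq transcripts, and that of PHE1 has 1080 bases against 840 in the counted model. A run of 120 coding bases is the same in both genes and is printed because pairs that fall within it match both models equally well and were removed. It lies at chr1:24266495-24266614 on the minus strand for PHE1 and at chr1:24255632-24255751 on the plus strand for PHE2, in TAIR10.1. No base is in capitals since none differs.
PHE1 and PHE2: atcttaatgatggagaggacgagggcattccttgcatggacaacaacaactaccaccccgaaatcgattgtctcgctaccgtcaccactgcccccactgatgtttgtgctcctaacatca
Outside that run the transcripts differ at many places. PHE2 also had no pair in any library, so no pair that could be assigned to either copy was counted. Pairs matching both copies equally well were removed from both counts, and how many there were cannot be read from these data.

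FIS2 and MEA encode subunits of the FIS Polycomb complex. FIS2 (AT2G35670, chromosome 2 from 14992565 to 14996756, plus strand, 13 exons) was counted at a low level in all 8 libraries, with 61, 5, 18 and 17 pairs in epidermis and 14, 25, 11 and 15 in mesophyll. Its levels were 1.79, 0.178, 0.584 and 0.571 CPM against 0.4975, 0.731, 0.365 and 0.482 CPM, and epidermis held both the highest and the lowest library. With 1 library at 1 CPM or more it did not pass the filter. In the fit without a filter it had a log2 fold change of 0.25 (SE 1.87, edgeR quasi-likelihood, adjusted p = 0.987), where 1.07% of 22886 tested models were called, 0.931% higher in epidermis. Its last exon shares 44 bases with AT2G35680 on the opposite strand, which had 649 to 1777 pairs per library, and without strand information reads from those bases cannot be assigned.

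MEA (AT1G02580, chromosome 1 from 544733 to 549202, plus strand) had 2 pairs in epidermis replicate 2, 1 pair in mesophyll replicate 1 and none elsewhere. Reads counted singly, which do not require that both mates align, numbered 11 for MEA over all libraries. The subunits that the FIS complex shares with other Polycomb complexes were far more abundant. MSI1, the most abundant of the list, had a mean of 88.05 ± 27.4 CPM in epidermis against 78.1 ± 16.7 CPM in mesophyll (SD, n = 4), and FIE, which binds the catalytic subunits, ranged from 46.55 to 75.3 CPM and from 33.5 to 62.8 CPM. The catalytic subunits CLF and SWN, which stand in the place of MEA in the complexes of other tissues, had 6.78 to 32.1 and 18.7 to 35.9 CPM in epidermis and 6.93 to 29.9 and 10.5 to 28.5 CPM in mesophyll. Of these 6 other subunits all were tested and none was called (edgeR quasi-likelihood), with a median log2 fold change of 0.37. The libraries thus carried transcripts of the general Polycomb subunits, and of the 2 FIS-specific subunits FIS2 at under 2 CPM and MEA at or below the limit of detection.

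FWA (AT4G25530, chromosome 4 from 13038360 to 13042464, plus strand, 10 exons) had 283 pairs in epidermis replicate 4, or 9.51 CPM, and no pair in the other 7 libraries. It did not pass the filter, and in the fit without one its adjusted p was 0.630 (edgeR quasi-likelihood). Reads counted singly numbered 603, all in the same library. FWA shares 10 exon bases with the mismatch repair gene MSH3 on the opposite strand. MSH3 had 313 pairs in epidermis replicate 4 and 238 in mesophyll replicate 1, where FWA had none.

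Imprinting of FWA is known to depend on methylated direct repeats around its start. The 250 bases before the annotated start, chr4:13038110-13038359 on the plus strand in TAIR10.1, are shown for that reason. Capitals mark the longest stretch that occurs more than once in them, 38 bases in 2 copies that are 7 bases apart.
FWA: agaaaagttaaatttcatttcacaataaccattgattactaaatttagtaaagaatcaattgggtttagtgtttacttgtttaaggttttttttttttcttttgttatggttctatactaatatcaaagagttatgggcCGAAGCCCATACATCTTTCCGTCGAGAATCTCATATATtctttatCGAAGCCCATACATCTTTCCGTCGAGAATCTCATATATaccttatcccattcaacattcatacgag
The repeats are a feature of the reference sequence, and no methylation was measured here.

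A gene seen in a single library was not rare, but few had as many pairs as FWA. Of 22886 models with a pair, 2190 (9.57%) had pairs in exactly 1 library. Of those, 78 had 100 or more pairs there, and 10 had at least as many as FWA, which is itself in both counts. Epidermis replicate 4 held 27 of the 78, FWA included, more than any other library, the other epidermis libraries 9 to 13 and the mesophyll libraries 4 to 6.

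Other imprinted genes were listed as well. Over all 33602 models, 68.1% had a pair in at least 1 library. Of the 13 imprinted genes listed 6 had no pair, 9 had fewer than 10 pairs in all, and 1 was tested. VIM5, a RING finger gene and the most abundant of them, had 3, 1, 165 and 401 pairs in epidermis and 2, 0, 7 and 2 in mesophyll, and it did not pass the filter. MYB3R2, chosen after its values were seen, had 148 pairs in epidermis replicate 4, 16 in replicate 1 and at most 1 in any other library. JMJ15 (MEE27 in the annotation), a jumonji histone demethylase gene, had 258, 159, 93 and 3 pairs in epidermis and 0, 46, 2 and 0 in mesophyll, and as the tested gene it was not called (log2 fold change 5.24, edgeR quasi-likelihood, adjusted p = 0.330). VIM5, MYB3R2 and FWA had their highest level in epidermis replicate 4, and JMJ15 its lowest epidermis level there.

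Of 8 genes listed for a part in DNA methylation or demethylation, 7 were counted in every library, whereas the glycosylase gene DML3 had 3 pairs in all, none of them in epidermis. The DNA glycosylase DME, which demethylates maternal alleles of FWA, FIS2 and MEA in the central cell, averaged 52.7 ± 23.1 CPM in epidermis against 76.4 ± 21.1 CPM in mesophyll (SD, n = 4; log2 fold change -0.62, edgeR quasi-likelihood, adjusted p = 0.325). AGO4, the most abundant of that list, had 351.6 ± 53.95 and 320 ± 42.7 CPM. The 7 were tested and none was called, with a median log2 fold change of -0.12, near the -0.04 of all genes.

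IKU2 and MINI3, of the HAIKU seed size pathway, were at the limit of detection. IKU2 (AT3G19700, chromosome 3 from 6843662 to 6847275, plus strand) had 2 pairs in epidermis replicate 4 and 2 in mesophyll replicate 1. It shares 307 exon bases with BCAT4 on the opposite strand, but BCAT4 had 1 pair in all. MINI3 (AT1G55600, WRKY10 in the annotation, chromosome 1 from 20774046 to 20776294, minus strand) had 1 pair, in mesophyll replicate 3. Of 3 other genes of the pathway, SHB1, an activator of IKU2 and MINI3, had no pair, and IKU1, a VQ motif partner of MINI3, was the only gene tested, at 0.907 to 7.98 CPM in epidermis and 1.23 to 11.8 CPM in mesophyll (log2 fold change -0.57, edgeR quasi-likelihood, adjusted p = 0.913). The cytokinin oxidase gene CKX2, a target of the pathway in endosperm that was chosen after its values were seen, had 33 pairs in epidermis replicate 4 and none in the other 7 libraries, the same library as FWA.

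The genes whose pattern over the 8 libraries lay nearest to that of MYB118 were AT5G38170, a gene of the lipid transfer and 2S albumin family, the zinc finger gene DOF4.7 and the gamma-glutamyl transpeptidase gene GGT2. Nearness was the root mean square difference of log2(CPM + 1), each gene centred on its own mean, and it was 0.430, 0.447 and 0.458, against a median of 1.99 over the 15793 other genes tested. For AGL62 the nearest genes were AT5G05140 (0.483), RBL1 (0.504) and HSP70T-2 (0.509), against a median of 1.28. AT5G38170 had 416, 154, 271 and 772 CPM in epidermis and 16.1 to 35.4 CPM in mesophyll, with its highest library at epidermis replicate 4 and its lowest epidermis library at replicate 2, as MYB118. These genes were picked for their nearness over the same 8 libraries, so their shared high and low libraries follow in part from that choice. No test was made of these likenesses.

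**Figure D4:**
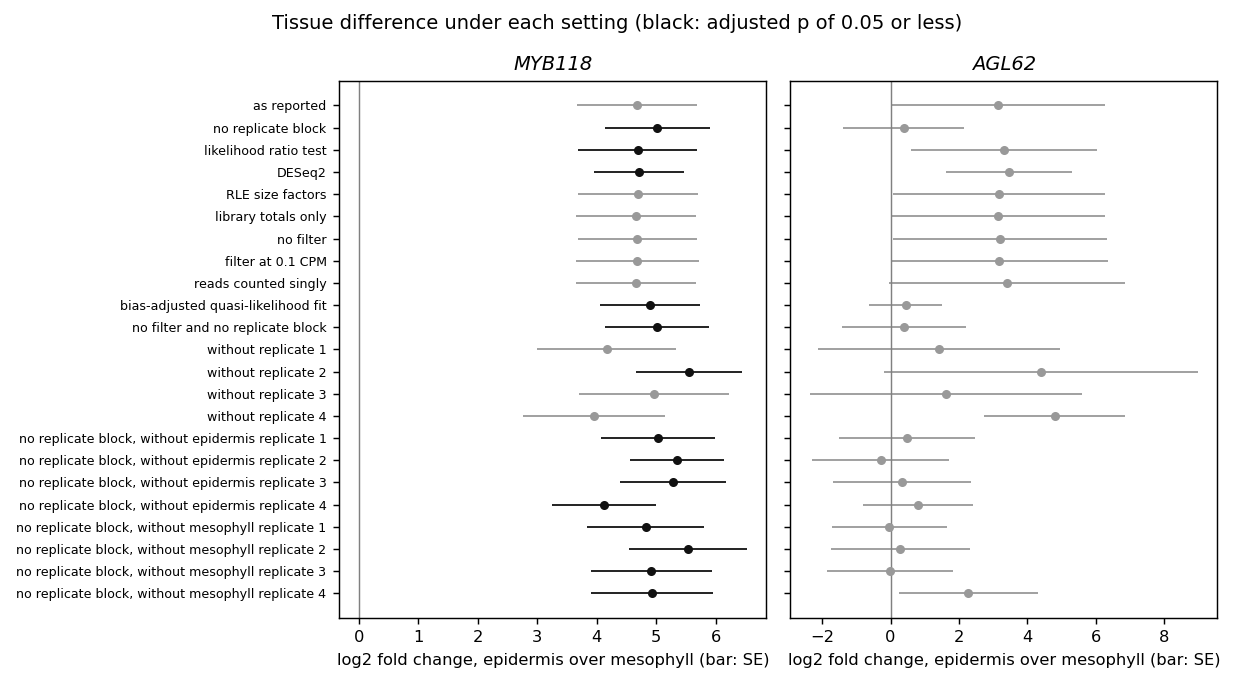
Log2 fold change of epidermis over mesophyll (x axis, with bars of 1 SE) of MYB118 and AGL62 under each setting (y axis), in black where the adjusted p was 0.05 or less and in grey otherwise. MYB118 lies between 3.95 and 5.55 in every setting shown, called in some and not in others, whereas AGL62 lies between -0.29 and 4.79 and is called in none.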

How the data were processed

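Per the file headers and the study's methods, the authors used trimming, sortMeRNA against ribosomal RNA and local Bowtie2 alignment to the representative models of TAIR10, and their own script did the counting. TopHat2 is named as well in the notes of the submitters. What was deposited is the raw count of pairs for each model, without strand, after removal of pairs matching several models equally well. Reads counted singly were an alternative. Of 33602 identifiers 32835 (97.7%) matched TAIR10.1 (RefSeq), which gave names, coordinates and sequences.

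Models reaching 1 CPM in 4 or more of the 8 libraries were scaled by TMM and fitted in edgeR 4.0.16 (R 4.3.3) with replicate number plus tissue (quasi-likelihood F test, legacy form, Benjamini-Hochberg over all tested genes, calls at 0.05). The study's own model held tissue and the date of harvest, and replicate number stands in for that date here. The study tested the tissue effect with edgeR's likelihood ratio test, which was an alternative here. The SE is the fold change over the square root of F. DESeq2 1.42.0 was an alternative. The p-values rest on the spread of these libraries, which may be partly technical.

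The 9 genes and all lists (other Polycomb subunits, HAIKU pathway, type I MADS box, imprinted, MYB-related, DNA methylation, and cell type markers) were chosen with earlier results of these data known. Named were the 9 genes, per list the called and the most abundant genes, and the 3 nearest patterns. Other genes were named after their values were seen, among them SUC5, ZOU, ALE1, EPR1 and LEC2 beside MYB118.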

Additional observations from a re-analysis of the deposited data

Results flagged for a closer look

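In 6 of 12 groups of 4 libraries in which a gene of the 9 varied, a single library was the only library of its tissue with a pair, and so stood apart from the other 3. Such a gap equals the whole range by construction, so the rate of about 1 group in 20 that chance gives for continuous values does not apply to these counts. The largest was FWA in epidermis replicate 4, at 9.51 CPM (283 pairs) against 0 in the other epidermis libraries. The other 5 rested on 1 or 2 pairs: MEA at 0.0713 CPM in epidermis replicate 2 and 0.0355 CPM in mesophyll replicate 1, IKU2 at 0.0672 CPM in epidermis replicate 4 and 0.0711 CPM in mesophyll replicate 1, and MINI3 at 0.0332 CPM in mesophyll replicate 3. All 5 lie below 3 pairs, the limit that a count of 0 allows.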

How the results depend on the processing

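The count of 171 differing genes was 361 with no replicate block, 821 with the likelihood ratio test, 1320 with DESeq2, 257 with a filter at 10 CPM and, in fits added after the data were seen, 633 with the bias-adjusted quasi-likelihood fit and 368 with neither filter nor block. It ranged from 54 to 147 without each replicate number and from 218 to 324 without each library (no block), with 309 without epidermis replicate 1 and 308 without epidermis replicate 4. Of the 9 genes, 0 were called as reported by edgeR's quasi-likelihood test, with MYB118 at an unadjusted p under 0.05, and 1, MYB118, with no replicate block, the likelihood ratio test, DESeq2, the bias-adjusted fit and neither filter nor block. It was 0 to 1 without each replicate number and 1 to 1 without each library. The log2 fold change of MYB118 ranged from 3.95 to 5.55 without each replicate number and from 4.12 to 5.53 without each library, and that of AGL62 from 1.42 to 4.79 and from -0.29 to 2.27, where it changed sign (-0.29 without epidermis replicate 2, -0.03 without mesophyll replicate 1 and -0.01 without mesophyll replicate 3). A filter at 10 CPM left none of the 9 genes to test. For pairing, deviations from the tissue means were correlated between libraries of equal number. The values were -0.00517 for number 1, -0.025 for 2, 0.0921 for 3 and -0.0217 for 4, none over 0.1. Only for 1 of 4 was the equal number the nearest, so these data do not show pairing by number. The replicate block was kept because the study modelled the date of harvest, for which the number stands in although the labels tie none to a date. MYB118 was not called with it (edgeR adjusted p = 0.0823) and was called without it (0.0133). The causes were not tested. The 5 genes with 4 pairs or fewer had too few pairs for their levels to be compared.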

Other observations

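Markers of other seed tissues were measured in the same libraries. Of 13 seed coat genes 2 were tested, and 1, the NAC gene NARS1, was called higher in epidermis (edgeR quasi-likelihood), against 0.981% of all genes. Their summed level was 17.9 to 63.6 CPM in epidermis and 8.32 to 18.4 CPM in mesophyll, with the highest library at epidermis replicate 4. In epidermis much of that sum came from the tested genes, MUM4 at 9.97 to 27.7 CPM and NARS1 at 7.655 to 17.0 CPM. MUM4 was not called. Single genes of the list differed in where they were counted. The tannin gene BAN had 306 pairs in epidermis replicate 4, 83 in replicate 3 and none elsewhere, and the ovule MADS box gene STK had 68 pairs in epidermis replicate 4 alone. TT2 had 102 pairs in mesophyll replicate 4 alone. MUM2 had 0, 331, 56 and 27 pairs in mesophyll replicates 1 to 4 and at most 1 in any epidermis library. AHA10 was highest in mesophyll replicate 3 with 25, and TT10 had 93 in epidermis replicate 3, 16 in mesophyll replicate 4 and none elsewhere. The suspensor gene WOX8 had 135, 86, 50 and 857 pairs in epidermis and at most 1 in a mesophyll library, again with the highest count in the library that held FWA. The other suspensor gene listed, WOX9, did not share that pattern, with 5 pairs in epidermis replicate 3, 1 in mesophyll replicate 3 and none elsewhere. Of 4 vascular genes 3 were tested, and 1, SUC2, was called higher (log2 fold change 2.76), against 0.981% of all genes. ATHB8 (-1.17) and TMO5 (-3.44) were not called (edgeR quasi-likelihood, adjusted p of 0.782 and 0.738), the median of the 3 was -1.17, and APL had 5 pairs in all. Of 5 embryo genes 1, LEC1, was called higher, against 0.981% of all genes, with a median log2 fold change of 0.09. LEC1 and FUS3, 2 of the 5, had all epidermis libraries above all mesophyll libraries, against 4.46% of all models with a pair.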
